A study of Mus musculus with 12 samples.

Results

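Astrocytes are the glial cells that take up glutamate and potassium released by neurons, move water along blood vessels, pass metabolites to one another through gap junctions, and turn reactive under injury or inflammation, a state known as gliosis. The 10 astrocyte marker genes described here are *Gfap*, *Aqp4*, *Slc1a2*, *Slc1a3*, *Glul*, *Gja1*, *Aldoc*, *Aldh1l1*, *S100b* and *Sox9*. Among them are genes of glutamate uptake, water movement, gap junctions and gliosis. The markers were chosen by gene symbol. All 10 were found among the 16855 genes listed for chow-fed mice and the 16744 genes listed for high-fat diet–fed (HFD-fed) mice. RNA came from the whole hypothalamus of male mice, 3 in each of 4 groups: WT (+/+) and *Gpr75*-/- mice that ate chow, and WT and *Gpr75*-/- mice that ate a HFD for 2 weeks from 6 weeks of age. The authors give the age of the mice as 8 weeks. The *Gpr75*-/- allele was made by CRISPR/Cas9 on the C57BL/6J background in every cell, and its frameshift ends translation early. Its mRNA can still be made, so *Gpr75* mRNA does not check the genotype labels. Its group means on chow were 16.7 CPM (read counts scaled to the same library total) in WT and 24.6 CPM in *Gpr75*-/- mice, and on the HFD they were 19.9 and 18.4 CPM.

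The files gave 1 mean for each gene and group and no value for a single mouse, so the spread among the 3 mice of a group is not known here. No test could be run, and every difference below is a description of 4 group means. The group means were deposited to 2 decimals on a doubly logarithmic scale and were converted back to CPM. Each ratio therefore carries a rounding range, the lowest and highest ratio that the deposited decimals allow, which is not an error between mice. Mean normalized counts of the 10 genes ran from 1128 to 16140 on chow and from 1170 to 18269 on the HFD. Counting alone then gave the log2 ratio of a pair of groups an error of 0.01 to 0.04. In whole tissue, fewer astrocytes and less RNA per astrocyte cannot be told apart. As a check of the tissue label, the hypothalamic neuropeptide genes *Pmch*, *Hcrt*, *Oxt* and *Avp* were present at 251, 122, 113 and 92.2 CPM on chow. Of the same kind, *Pomc* and *Agrp* were low, at 16.1 and 3.06 CPM on chow.

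Levels of the markers were compared per kilobase of exon, as means over both genotypes on a diet. *Aldoc*, which encodes the brain form of the glycolytic enzyme aldolase, had the highest level at 271 CPM per kilobase on chow and 270.4 on the HFD. *Slc1a3*, which encodes the glutamate transporter GLAST, followed at 101 and 110.2 CPM per kilobase. *Glul*, whose product glutamine synthetase converts the glutamate taken up into glutamine, stood at 77.9 and 80.2. Next came *S100b*, a gene for a calcium-binding protein, at 67.3 and 66.9 CPM per kilobase, and the gap junction gene *Gja1* (connexin 43) at 47.7 and 51.7. The glutamate transporter gene *Slc1a2* (GLT-1) lay at 43.0 and 39.1 CPM per kilobase, and the intermediate filament gene *Gfap* at 36.4 and 42.2. These 2 genes traded places between the diets on this scale, but per longest transcript *Gfap* stood above *Slc1a2* on both, at 57.9 and 48.7 CPM per kilobase on chow and at 67.3 and 44.2 on the HFD. The water channel gene *Aqp4* was at 28.9 and 29.4 CPM per kilobase. The transcription factor gene *Sox9*, at 24.7 and 22.6, and *Aldh1l1*, a folate enzyme gene at 13.7 and 13.3, closed the order on both diets. Whether neighbors in this order differ beyond the spread between mice cannot be said from these values.

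**Figure D1:**
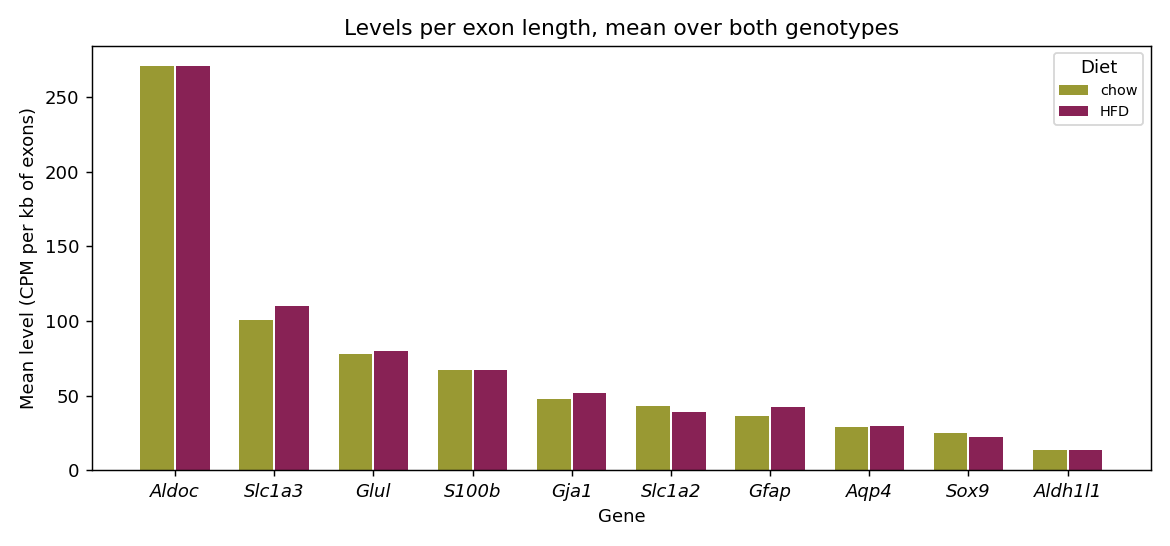
Mean level of each marker gene over both genotypes on chow (olive bars) and on the HFD (purple bars), in CPM per kilobase of exon (vertical axis, from 0). *Aldoc* stands at 271 and 270.4, above *Slc1a3* at 101 and 110.2, and *Aldh1l1* is lowest on both diets.

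*Gfap* is the classical gene of gliosis, and its transcription is known to respond to STAT3, which binds sites of the form TTCNNNGAA. Promoter windows from RefSeq (GRCm38.p6), 250 bases before to 50 after a transcription start, covered 8 of the 10 genes with 9 windows. *Sox9* had no entry, and *Aqp4* was not looked at because its chromosome was left out of the search. The motif, which reads the same on both strands, was found in windows of 3 of these 8 genes, *Gfap*, *Slc1a3* and *Aldoc*, the latter at 1 of its 2 starts. It occurs in 8.30% of the 32851 windows searched, a background that also leaves out the chromosome of *Aqp4*. The windows of *Gfap*, *Slc1a3*, *Gja1* and *Slc1a2* are shown because these 4 markers were past 1.1-fold between the diets in WT mice, the first 3 higher and *Slc1a2* lower on the HFD. For *Slc1a3* and *Gja1* the rounding range also holds ratios short of that mark. Of these 4, *Gja1* and *Slc1a2* have no match. *Aldoc*, with 2 matches in 1 window, stood on the HFD at 0.950 of its chow level in WT mice (rounding range 0.902 to 1). In *Gpr75*-/- mice it stood at 1.05 (1 to 1.11). Any part of the motif in these values was not tested. The windows are written in the direction of transcription, with the motif in capitals. A match describes letters only, and binding was not measured.
Gfap, chr11:102897151-102897450, minus strand: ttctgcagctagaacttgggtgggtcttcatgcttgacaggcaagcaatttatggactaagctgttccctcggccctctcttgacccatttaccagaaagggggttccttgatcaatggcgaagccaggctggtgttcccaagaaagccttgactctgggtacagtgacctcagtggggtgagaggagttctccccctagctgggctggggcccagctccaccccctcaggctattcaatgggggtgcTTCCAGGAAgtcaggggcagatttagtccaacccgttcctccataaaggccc
Slc1a3, chr15:8710758-8711057, minus strand: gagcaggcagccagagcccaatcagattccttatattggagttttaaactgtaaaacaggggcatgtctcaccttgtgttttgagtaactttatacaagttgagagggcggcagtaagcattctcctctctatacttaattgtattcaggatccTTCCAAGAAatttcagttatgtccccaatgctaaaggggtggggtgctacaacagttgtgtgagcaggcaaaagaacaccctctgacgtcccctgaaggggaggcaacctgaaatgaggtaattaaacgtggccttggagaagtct
Slc1a2, chr2:102706188-102706487, plus strand, no match: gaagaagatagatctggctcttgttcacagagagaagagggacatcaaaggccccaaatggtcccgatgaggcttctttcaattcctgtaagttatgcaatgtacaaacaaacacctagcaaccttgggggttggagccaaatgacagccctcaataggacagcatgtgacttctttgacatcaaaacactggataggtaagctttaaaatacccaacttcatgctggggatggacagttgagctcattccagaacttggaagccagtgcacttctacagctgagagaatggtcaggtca
Gja1, chr10:56377050-56377349, plus strand, no match: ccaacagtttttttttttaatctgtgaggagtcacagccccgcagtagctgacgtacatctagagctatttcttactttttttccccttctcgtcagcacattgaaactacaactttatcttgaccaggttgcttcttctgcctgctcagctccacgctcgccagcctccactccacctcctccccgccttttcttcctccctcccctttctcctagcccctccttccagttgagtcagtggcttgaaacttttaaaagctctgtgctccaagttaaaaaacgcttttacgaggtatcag

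The question for the genotypes was whether loss of GPR75 goes with a different level of these genes on either diet. On chow the group means of the genotypes lay close together, and whether they differ beyond the spread between mice was not tested. For 5 genes, *Gfap*, *Glul*, *Gja1*, *Aldoc* and *Sox9*, the deposited means of WT and *Gpr75*-/- mice were equal in both decimals, which bounds the ratio of their means between 0.950 and 1.05. Another 3 genes, *Aqp4*, *Slc1a3* and *S100b*, were 1 rounding step higher in *Gpr75*-/- mice, a step that leaves room for no difference at all. The median log2 ratio of the 10 genes was 0.00, as was that of all 8541 genes with a mean of at least 20 CPM. Ratios past 1.1-fold in either direction were found for 2 of the 10 genes, beside 15.0% of those 8541 genes, so the share among the markers was close to that of the background. The rounding range of each marker past 1.1-fold between the genotypes, on either diet, also holds ratios short of that mark, so the deposited decimals do not settle these counts.

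*Slc1a2* was the marker that was lower on chow. GLT-1 is the main glutamate transporter of forebrain astrocytes, and its gene lies on chromosome 2, 102489004 to 102621129 (ENSMUSG00000005089, coordinates as deposited, build GRCm39 per the submitters' processing notes). Its group mean was 587 CPM in WT and 532 CPM in *Gpr75*-/- mice, a ratio of 0.907 (rounding range 0.864 to 0.953). A log2 ratio at or below that of *Slc1a2* was found for 7.86% of all genes tested. On the HFD both groups stood at 507 CPM (rounding range of the ratio 0.953 to 1.05). The chow-fed WT group was thus the highest of the 4 and the HFD-fed groups the lowest.

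The second glutamate transporter gene, *Slc1a3* (ENSMUSG00000005360, chromosome 15, 8663608 to 8740248), did not share this order. It had 834 CPM in WT and 878 CPM in *Gpr75*-/- mice on chow (ratio 1.05, range 1 to 1.11), and 925 CPM in both groups on the HFD. Its rounding range on chow touches no difference. *Glul* (ENSMUSG00000026473, chromosome 1, 153775690 to 153785469) was at 256 CPM in both chow groups and in HFD-fed WT mice, and at 267 CPM in HFD-fed *Gpr75*-/- mice (ratio 1.04, range 1 to 1.09). The 3 genes of glutamate uptake and recycling therefore showed no common direction.

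*Aldh1l1* (ENSMUSG00000030088, chromosome 6, 90463409 to 90577185) was higher in *Gpr75*-/- mice on both diets. Its product, 10-formyltetrahydrofolate dehydrogenase, is a folate enzyme used as a marker of astrocytes across brain regions. The group means were 58.4 CPM in WT and 64.6 CPM in *Gpr75*-/- mice on chow, a ratio of 1.11 (rounding range 1.07 to 1.14). On the HFD they were 56.5 and 62.4 CPM, a ratio of 1.1 (range 1.07 to 1.14). The diets share no mice, so the 2 ratios come from separate groups. Of 8423 genes with at least 20 CPM on both diets, 58 (0.689%) were past 1.1-fold higher in *Gpr75*-/- mice on both. *Aldh1l1* has the fewest counts of the 10 genes, with a mean of 1128 normalized counts on chow and a counting error of 0.04 on the log2 scale.

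On the HFD, the picture was again of small differences. *Aqp4*, *Slc1a2*, *Slc1a3*, *Gja1* and *S100b* had equal deposited means in the genotypes, with ratios bounded between 0.949 and 1.05. *Gfap* and *Glul* were 1 rounding step higher and *Sox9* was 1 step lower in *Gpr75*-/- mice. The median log2 ratio was 0.00, both for the 10 markers and for all 8530 genes tested. Again 2 of the 10 markers were past 1.1-fold, *Aldoc* and *Aldh1l1*, beside 10.7% of all genes tested in either direction.

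*Aldoc* (ENSMUSG00000017390, chromosome 11, 78213794 to 78218607) had 834 CPM in WT and 925 CPM in *Gpr75*-/- mice on the HFD, a ratio of 1.11 (rounding range 1.05 to 1.17). A ratio at least as high was found for 3.86% of all genes tested. On chow both groups stood at 878 CPM (rounding range of the ratio 0.950 to 1.05). The HFD-fed WT group was the lowest of the 4 and the HFD-fed *Gpr75*-/- group the highest. Whether the genotype ratio of *Aldoc* or of *Slc1a2* differed between the diets was not tested.

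**Figure D2:**
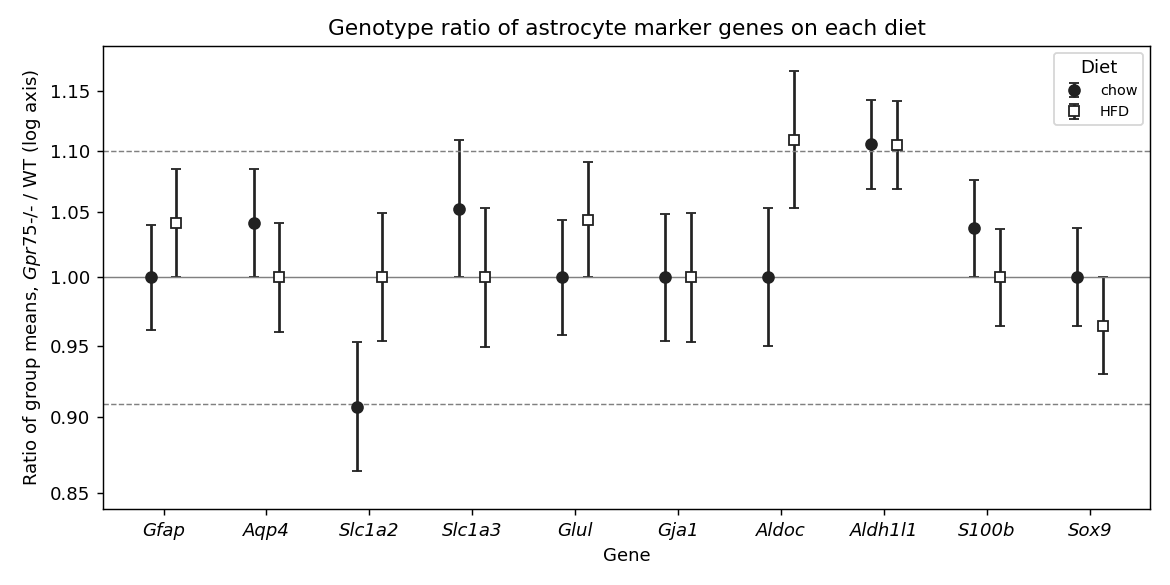
Ratio of the group mean in *Gpr75*-/- mice to that in WT mice for each marker gene (log axis) on chow (filled circles) and on the HFD (open squares). Bars are rounding ranges of the deposited means, not errors between mice, and dashed lines mark 1.1-fold in each direction. *Aldh1l1* lies at 1.11 and 1.1, *Aldoc* at 1 and 1.11, and *Slc1a2* at 0.907 and 1.

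For gliosis, *Gfap* (ENSMUSG00000020932, chromosome 11, 102778162 to 102791738) is the marker of first interest, since a HFD is known to bring about reactive astrocytes in the hypothalamus. *Gfap* had 150 CPM in both genotypes on chow, with a ratio between 0.961 and 1.04. On the HFD it had 176 CPM in WT and 183 CPM in *Gpr75*-/- mice (ratio 1.04, range 1 to 1.08). The genotypes lay close together on each diet, and both HFD-fed groups lay above both chow-fed groups.

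The diets were set side by side as CPM of each group, although the 2 tables were normalized separately, and no test was made. The plan had been not to compare levels normalized separately, so the ratios of HFD to chow depart from it. *Gfap* on the HFD was 1.17 times the chow level in WT mice (rounding range 1.13 to 1.22) and 1.22 times in *Gpr75*-/- mice (1.17 to 1.27). A ratio of HFD to chow at least as high was found for 3.32% of all genes tested in WT and for 0.416% in *Gpr75*-/- mice. *Gja1* (ENSMUSG00000050953, chromosome 10, 56253426 to 56278609), whose connexin joins astrocytes into networks, went from 484 CPM in both chow groups to 532 CPM in both HFD groups (ratio 1.1, range 1.05 to 1.15). *Slc1a2* was lower on the HFD in WT mice, at 0.865 of the chow level (0.824 to 0.908), and at 0.953 (0.908 to 1) in *Gpr75*-/- mice. *Slc1a3* was at 1.11 (1.05 to 1.17) and 1.05 (1 to 1.11). *Sox9* (ENSMUSG00000000567, chromosome 11, 112673050 to 112678586), a transcription factor gene of the astrocyte lineage, was lower on the HFD, at 0.929 (0.896 to 0.964) in WT and 0.896 (0.864 to 0.930) in *Gpr75*-/- mice. Past 1.1-fold were 4 markers in WT mice, beside 26.2% of the 8423 genes tested, and 3 markers in *Gpr75*-/- mice, beside 15.8%. The deposited decimals do not settle these counts. Rounding ranges of *Gja1* in both genotypes, *Slc1a3* in WT and *Sox9* in *Gpr75*-/- mice also hold ratios short of 1.1-fold.

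The deposited means of *Aqp4*, *S100b* and *Glul* spanned no more than 1 rounding step over the 4 groups. *Aqp4* (ENSMUSG00000024411, chromosome 18, 15522553 to 15544039), whose water channel sits on astrocyte endfeet, had 176 CPM in chow-fed WT mice and 183 CPM in each of the other groups. *S100b* (ENSMUSG00000033208, chromosome 10, 76089687 to 76096993) had 102 CPM in chow-fed *Gpr75*-/- mice and 98.4 CPM in each of the other groups. *Sox9* had 102 CPM in both chow groups, 94.9 CPM in HFD-fed WT and 91.5 CPM in HFD-fed *Gpr75*-/- mice.

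**Figure D3:**
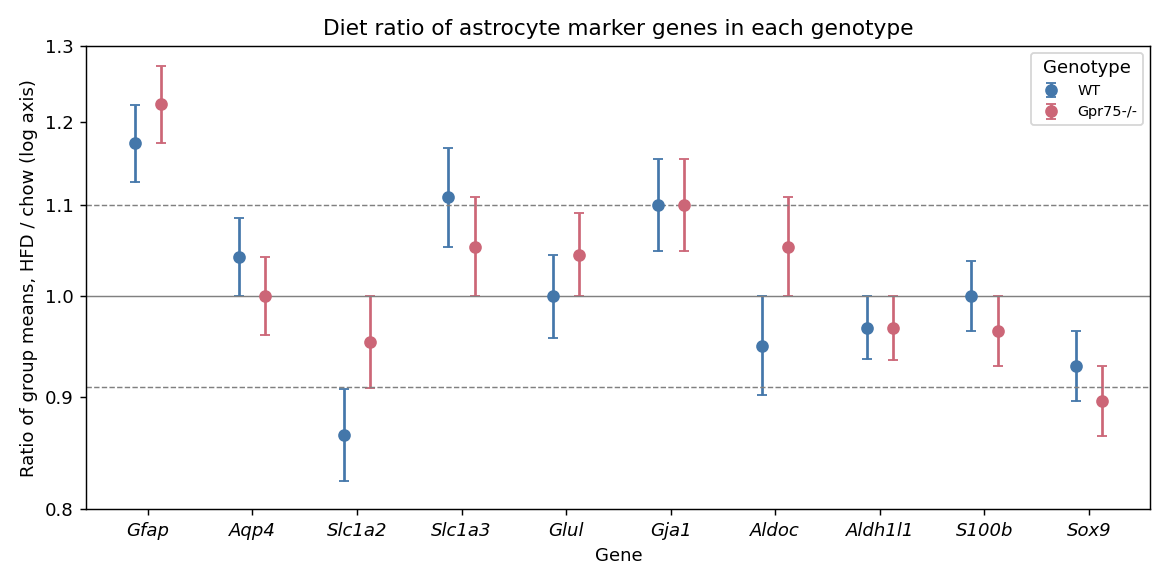
Ratio of the HFD group mean to the chow group mean for each marker gene (log axis) in WT mice (blue) and *Gpr75*-/- mice (red). Bars are rounding ranges and dashed lines mark 1.1-fold. *Gfap* is highest in both genotypes, at 1.17 and 1.22, and *Slc1a2* in WT mice is lowest, at 0.865.

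**Figure D4:**
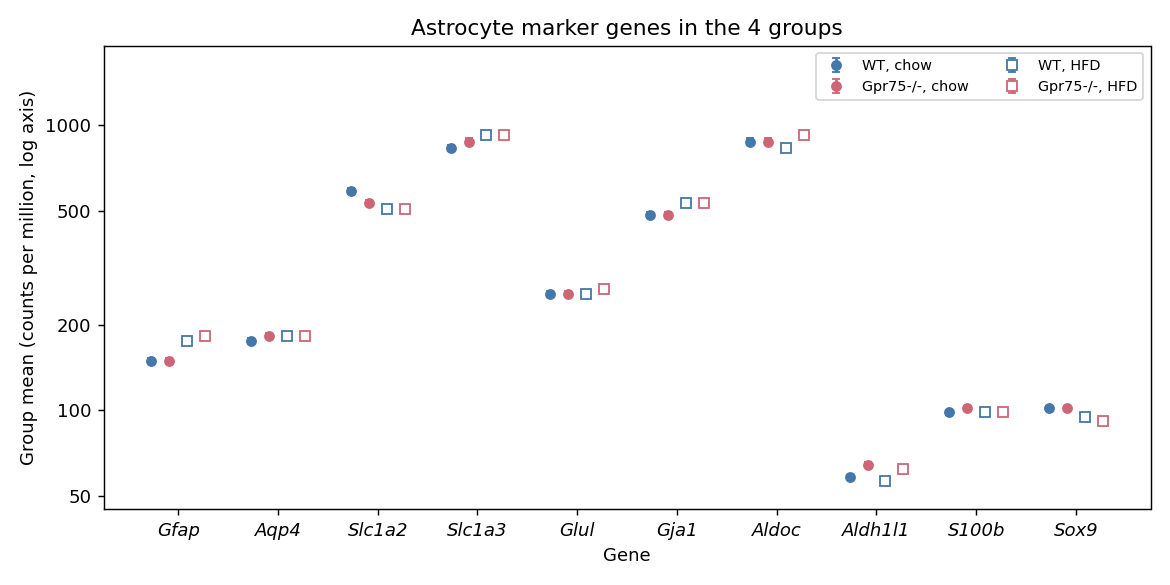
Group mean of each marker gene in CPM (log axis) in WT (blue) and *Gpr75*-/- mice (red) on chow (filled circles) and on the HFD (open squares), with rounding ranges as bars. *Gfap* lies at 150 CPM in both chow groups and at 176 and 183 CPM in the HFD groups, while *Aqp4* stays between 176 and 183 CPM.

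A further list of 22 astrocyte genes, written with earlier results of these data known, had 21 members with at least 20 CPM on each diet. On chow 5 of these 21 were past 1.1-fold, beside 15.0% of all genes tested, and on the HFD 2, beside 10.7%. The median log2 ratio was 0.00 on both, as over all genes. *Slc4a4*, which encodes a sodium bicarbonate cotransporter, had the lowest ratio of the 21 on both diets, with 420 CPM in WT and 349 CPM in *Gpr75*-/- mice on chow and 349 and 292 CPM on the HFD. Its log2 ratios were -0.27 (rounding range -0.33 to -0.20) and -0.26 (-0.32 to -0.19). *Slc4a4* is one of 158 genes (1.88% of 8423) past 1.1-fold lower in *Gpr75*-/- mice on both diets. Among the 21 genes, the highest on chow was *Mlc1*, a gene for a membrane protein of astrocyte endfeet, with 199 CPM in WT and 225 CPM in *Gpr75*-/- mice, and with 235 CPM in both groups on the HFD. On the HFD it was *Agt* (angiotensinogen), with 245 CPM in WT and 279 CPM in *Gpr75*-/- mice, where the chow groups stood at 225 and 216 CPM. *Slc4a4* alone was past 1.1-fold on both diets among these 21 genes.

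The genes of reactive astrocytes were mostly low in this tissue. Of 23 listed, 17 were in each table, 4 had at least 20 CPM on chow and 5 on the HFD. On chow 1 of the 4 was past 1.1-fold, beside 15.0% of all genes tested, the complement gene *C4b*, with 28.2 CPM in WT and 32.5 CPM in *Gpr75*-/- mice (log2 ratio 0.21, rounding range 0.16 to 0.25). The lowest on chow were *Serpina3n* and *Stat3*, with equal deposited means. On the HFD 3 of the 5 were past 1.1-fold, beside 10.7% of all genes tested, and all 3 were higher in *Gpr75*-/- mice: *Vim*, the gene for the filament protein vimentin, with 20.4 and 23.9 CPM, *C4b* with 31.5 and 36.5 CPM, and the serine protease inhibitor gene *Serpina3n* with 25.2 and 29.0 CPM. *Il6st*, a cytokine receptor gene, was lowest, with equal deposited means. The median log2 ratio was 0.03 on chow and 0.20 on the HFD. On chow *Vim*, with a mean of 19.997 CPM and a log2 ratio of 0.26, fell just short of the 20 CPM filter. With all genes of at least 100 normalized counts let in, the medians were 0.05 over 9 genes on chow, of which 2 were past 1.1-fold higher and 1 lower, and 0.12 over 10 genes on the HFD, of which 4 were higher and 1 lower. The lower genes were *Nes* on chow (log2 ratio -0.18) and *Cd44* on the HFD (-0.20), and 20.8% and 16.9% of all genes passed the mark at that filter. *Vim*, *C4b* and *Serpina3n* are also expressed in cells other than astrocytes.

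Markers of other cells in the tissue were set beside these values. Of 10 oligodendrocyte genes, 7 on chow and 10 on the HFD were past 1.1-fold, all lower in *Gpr75*-/- mice, beside 15.0% and 10.7% of all genes tested in either direction. Their summed level went from 11704 CPM in WT to 9994 CPM on chow and from 12322 to 10547 CPM on the HFD. The summed level of the 10 astrocyte markers was 3622 CPM in WT and 3629 CPM in *Gpr75*-/- mice on chow, and 3662 and 3775 CPM on the HFD. Of 3 choroid plexus genes with a mean of at least 20 CPM on chow, 2 were past 1.1-fold, *Clic6* and *Ttr*. Both were higher in *Gpr75*-/- mice, beside 15.0% of all genes tested in either direction. *Ttr* met the filter only by its mean over both genotypes, since both its group means lay under 20 CPM. On the HFD the 1 choroid plexus gene with at least 20 CPM, *Prlr*, had 41.2 CPM in WT and 46.6 CPM in *Gpr75*-/- mice. The mean of *Ttr*, the leading gene of that epithelium, over the 6 chow-fed mice was 159 CPM, while its log-scale group means were 5.59 CPM in WT and 12.9 CPM in *Gpr75*-/- mice. On the HFD the order of *Ttr* was the opposite, with 3.60 and 1.35 CPM. Medians of neuron, microglia and endothelial genes lay between -0.08 and 0.00 on both diets. For tanycytes and ependymal cells, which share several genes with astrocytes, 1 gene had at least 20 CPM on each diet. At 100 normalized counts or more, 3 of 8 on chow were past 1.1-fold higher and 3 lower, beside 20.8% of all genes. On the HFD 4 of 7 were past that mark, all lower in *Gpr75*-/- mice, beside 16.9% of all genes. The part of these other cells in the values of *Slc1a2*, *Aldoc* or *Aldh1l1* was not tested.

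**Figure D5:**
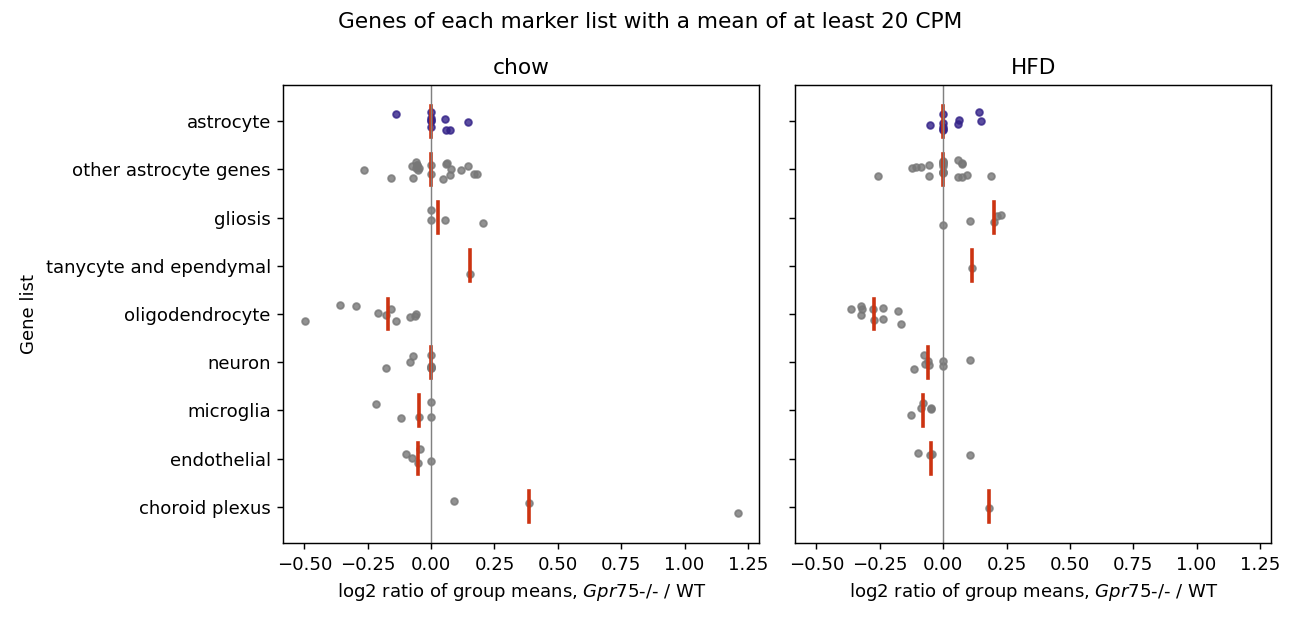
Log2 ratio of the group means, *Gpr75*-/- over WT, for genes with at least 20 CPM in 9 marker lists on chow (left) and on the HFD (right). Points are genes, blue for the astrocyte markers, and red bars are list medians. The astrocyte medians are 0.00 on both diets, and those of oligodendrocyte genes are -0.17 and -0.27.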

How the data were processed

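Libraries were prepared from hypothalamus RNA with a SMART-Seq mRNA kit. The submitters' processing notes name STAR, featureCounts, StringTie, DESeq2 and the build GRCm39, with no versions. For each diet the authors deposited 1 table. The signal used from it is the authors' mean over 6 mice of counts divided by size factors. The second unit is the deposited mean of each group, rounded to 2 decimals, on a log2 scale that the files do not name. Read as log2(1 + log2 CPM), it gave back log2 of the mean CPM within 0.1 for 99.9% of genes at or above 20 CPM on each diet. The same columns understate groups in which mice differ widely.

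The tables also hold the authors' own comparison of the genotypes (fold changes, standard errors, test statistics and p-values), which was not used here. Tests on counts of single mice had been planned and could not be run, because the levels given were means over several mice. Instead, ratios of group means were formed with rounding ranges, and 1.1-fold served as a mark of size. Mean normalized counts summed to 1.83e+07 for the chow table and 1.94e+07 for the HFD table. These sums set the CPM of means over both genotypes, while the CPM of each group came from the deposited group means alone. The totals of single mice are unknown here, and intervals for sampling between mice cannot be given.

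Exon lengths came from GENCODE vM21 (GRCm38) by Ensembl identifier, matched for 99.8% of genes, with no coordinates taken from it. The markers, lists and settings were chosen with earlier results of these data known. Text names the 10 markers, *Gpr75* and the extremes of both astrocyte lists at or above 20 CPM, and other genes named were chosen after their values were seen. The conversion was tested on data simulated on the same scale, so that test cannot show whether the deposited scale was read rightly. Python 3.11.15, numpy 2.4.6, pandas 2.3.3 and matplotlib 3.10.9 were used. Some results for single genes are not reported here.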

Additional observations from a re-analysis of the deposited data

How the results depend on the processing

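The number of markers past 1.1-fold, 2 on each diet, could not change with the filter (none, or a mean of at least 100 normalized counts), with protein-coding genes alone or with centring on the median of all genes, since these settings keep all 10 markers and that median is 0. Their agreement therefore says nothing about stability. With thresholds chosen after the data were seen, the number was 0 on both diets at 1.2-fold, where 2.01% and 1.15% of tested genes passed. At 1.05-fold it was 3 on chow and 2 on the HFD, beside 42.0% and 35.9% of tested genes. The count over all genes moved with the filter: without a filter 5236 genes (31.1%) on chow and 4443 (26.5%) on the HFD were past 1.1-fold, against 1280 and 913 with the filter. Per longest transcript instead of per exon union, the median level of the markers was 62.6 CPM per kilobase on chow and 67.1 on the HFD, against 45.4 and 47.0, and *Gja1* moved from place 5 to place 3 on both diets. *Gfap* passed *Slc1a2* on chow and *S100b* on the HFD. Levels on chow that moved by over 1.5 times were those of *Slc1a3* (100.7 to 193.8), *Gja1* (47.7 to 125.9) and *Gfap* (36.4 to 57.9), and on the HFD the same genes went from 110.2 to 212.1, from 51.7 to 136.4 and from 42.2 to 67.3.

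No paired analysis was possible because the values used hold no single mouse. For the same reason other normalizations, DESeq2 and leaving out a replicate were not run. Rounding limits the ratio of 2 equal group means to about 0.95 to 1.05, and no depth or spread of a single mouse enters any value.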

Other observations

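Several genes of the astrocyte and gliosis lists lay under 20 CPM and are given as values only, picked after they were seen. *Cebpd*, a transcription factor gene, had 3.0 CPM in WT and 4.15 CPM in *Gpr75*-/- mice on chow, and 4.91 and 6.08 CPM on the HFD. The metallothionein gene *Mt2* had 11.8 and 15.9 CPM on chow, and 13.8 and 15.5 CPM on the HFD. *Vim* on chow had 18 and 21.5 CPM, a log2 ratio of 0.26 (rounding range 0.22 to 0.29). Other low genes of the gliosis list had the opposite order. *Gbp2* had 3.15 CPM in WT and 3.04 CPM in *Gpr75*-/- mice on chow, and 4.09 and 3.70 CPM on the HFD. On the HFD *Cd44* had 9.76 and 8.48 CPM, and *Osmr* 4.98 and 4.54 CPM. None of these differences was tested. *Nes*, the gene for nestin, had 10.6 and 9.37 CPM on chow and 9.18 and 9.37 CPM on the HFD.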
